A study of Mus musculus with 18 samples.

Results

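B cells do more than make antibody: once activated they can secrete cytokines and chemokines, and 10 genes for such proteins are described here, Ccl3, Ccl4, Ccl22, Il6, Il10, Tnf, Lta, Ltb, Ebi3 and Tgfb1. They were chosen by gene name, and each name occurs once in the 129 and once in the Cast table, among 28374 genes that could be matched between the tables. The cells were CD23+ B cells from the spleen of female F1 mice, 129S1/Cast by cross and Xist+/- by genotype, in which the Cast X chromosome was the inactive one per the labels. CD23 is a surface receptor of mature follicular B cells, and Xist is the RNA that silences an X chromosome. Naive cells (3 samples) received no treatment, and stimulated cells (3 samples) were kept in vitro with 1 µM CpG for 24 h. The CpG oligonucleotide mimics bacterial DNA and is sensed by Toll-like receptors inside B cells. All 6 samples carried the Xist+/- genotype, so no comparison here is about that mutation. Cells kept in culture without CpG are not analysed here, so culture and CpG cannot be told apart. The labels do not give the age of the mice, or whether samples of a group came from separate mice, so p-values measure the spread between these samples only. Of the 18 samples of the series, these 6 are used here. Total RNA was sequenced with a strand-marking kit, and the deposited tables hold separate 129 and Cast counts, so each gene has a 129 count and a Cast count in each sample.

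Cytokines and chemokines act through receptors on the same or neighbouring cells. Interleukin-6 is an inflammatory signal that helps plasma cell formation, while interleukin-10, the product of Il10, and transforming growth factor beta, the product of Tgfb1, restrain immune responses. Tnf, Lta and Ltb encode members of the tumour necrosis factor family, are neighbours on chromosome 17, and are used by B cells to organise lymphoid follicles. Ccl3 and Ccl4 are neighbours on chromosome 11 and attract monocytes and T cells, and Ccl22 attracts T cells. Transcription of several of these genes is known to be switched on by NF-kB, a factor that Toll-like receptors activate.

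Upstream sequences of 8 of the 10 genes were in the RefSeq table for GRCm38.p6, which is the C57BL/6J genome and neither of the strains crossed here. The 250 bases before the start of 4 of them are shown, for a pair that went from almost no reads to many (Il6 and Ccl3) and for a pair of neighbours of which 1 fell and the other did not pass the test (Ltb and Tnf). They are written 5′ to 3′ along the gene, and capitals mark matches, on either strand, to the NF-kB consensus, to the AP-1 motif TGANTCA or to the TATA motif TATAAA.
Il6: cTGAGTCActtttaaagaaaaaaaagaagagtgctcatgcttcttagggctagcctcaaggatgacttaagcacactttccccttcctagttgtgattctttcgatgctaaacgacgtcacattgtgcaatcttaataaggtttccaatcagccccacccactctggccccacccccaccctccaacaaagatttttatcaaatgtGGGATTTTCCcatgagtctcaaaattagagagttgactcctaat
Ccl3: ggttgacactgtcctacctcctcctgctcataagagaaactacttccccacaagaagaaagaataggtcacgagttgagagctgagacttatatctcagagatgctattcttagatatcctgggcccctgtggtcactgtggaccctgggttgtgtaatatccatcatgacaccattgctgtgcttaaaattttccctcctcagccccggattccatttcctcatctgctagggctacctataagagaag
Ltb: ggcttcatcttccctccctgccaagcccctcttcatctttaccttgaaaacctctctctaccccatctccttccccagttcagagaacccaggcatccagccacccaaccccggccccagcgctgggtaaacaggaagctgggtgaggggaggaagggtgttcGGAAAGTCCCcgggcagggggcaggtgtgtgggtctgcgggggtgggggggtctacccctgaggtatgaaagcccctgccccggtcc
Tnf: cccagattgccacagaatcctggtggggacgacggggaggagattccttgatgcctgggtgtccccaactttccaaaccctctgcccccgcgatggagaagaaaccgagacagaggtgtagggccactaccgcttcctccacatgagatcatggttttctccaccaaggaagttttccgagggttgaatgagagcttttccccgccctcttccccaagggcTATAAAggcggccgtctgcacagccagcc
These windows lie at chr5:30012864-30013113 on the plus strand, chr11:83649379-83649628 on the minus strand, chr17:35194257-35194506 on the plus strand and chr17:35202008-35202257 on the minus strand. In Il6 the capitals mark an AP-1 match from 249 to 243 bases and an NF-kB match from 44 to 35 bases before the start. In Ltb they mark an NF-kB match from 87 to 78 bases before the start, on the opposite strand, and in Tnf a TATA match from 29 to 24 bases before it. The Ccl3 window held none of these letters. The Il6 AP-1 letters match the motif on both strands, and matches to different motifs did not overlap. Of 32817 windows of the same length, 7.25% held the NF-kB consensus, 6.75% the AP-1 motif and 12.4% the TATA motif. A match describes the letters only.

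Gene reads over both alleles numbered 4452339 to 6249989 per sample, made up of 1987266 to 2928236 on the 129 and 2465073 to 3321753 on the Cast allele. Levels are given as CPM (reads of a gene scaled to library size), and the change as a log2 fold change (log2 of stimulated over naive) with its standard error (SE) from edgeR's quasi-likelihood test, with Benjamini-Hochberg adjustment over all genes tested and a threshold of 0.05. Unless the replicate number is named as a block, naive and stimulated samples are not paired. B cell markers were present in every sample. Of 8 listed, 7 were matched and tested. All 7 were lower after CpG (median log2 fold change -1.74), beside 34.4% lower over all genes tested. Their summed level was 8080 to 9971 CPM in naive and 2830 to 3528 CPM in stimulated samples. Fcer2a, which encodes CD23, was at 518 ± 186 CPM in naive and 20.6 ± 2.30 CPM in stimulated cells (SD, n = 3). Markers of other cell types were also read in the naive samples. Of 16 red pulp macrophage markers 14 were tested and all 14 were lower after CpG, beside 34.4% lower over all genes tested. All but Adgre1, Hmox1 and Marco passed the filter on low counts only through the naive samples, so their direction was set by the filter. Marco reached the filter's CPM cut in 3 naive and 2 stimulated samples. The summed level of the markers was 3551 to 7523 CPM in naive and 28.5 to 40.4 CPM in stimulated samples. The complement gene C1qb, which many tissue macrophages express, had 1730 to 4475 reads in naive and 0 to 2 in stimulated samples, and Spic, a factor needed for red pulp macrophages, had 448 to 965 and 4 to 7. Of 10 T cell markers 5 were tested, 4 of them lower and 0 higher. Among the lower ones, Cd3d, Cd4 and Cd8b1 passed the filter only through the naive samples, which set their direction. The summed level was 69.8 to 204 CPM in naive and 29.3 to 39.0 CPM in stimulated samples. The largest part of the mean sum was Il7r, at 83.8 ± 65.5 and 27.3 ± 4.73 CPM (SD, n = 3), which did not pass the test. The T cell receptor chain Cd3e had 3 to 9 reads in naive and 0 to 1 in stimulated samples. Markers of natural killer cells summed to 15.5 to 23.5 and 2.67 to 5.78 CPM, of neutrophils to 34.3 to 45.8 and 2.59 to 3.71 CPM, of dendritic cells to 35.9 to 63.3 and 16.0 to 25.9 CPM, and of basophils and mast cells to 0.477 to 0.922 and 0 to 0.390 CPM, in naive and stimulated samples. Of these lists, 2 of 2 natural killer cell genes tested and the 1 neutrophil gene tested were lower, 2 of 4 dendritic cell genes were lower and 1 higher, and 0 basophil or mast cell genes could be tested. The filter set the direction of Gzma, Itgax and Siglech, which passed only through the naive samples. Csf3r reached the cut in 3 naive and 2 stimulated samples. Ccr9, the higher gene, reached it in 3 stimulated samples and 1 naive sample, so the filter favoured its direction without setting it. In such bulk samples, fewer cells of a type and less RNA per cell cannot be told apart.

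With both alleles summed, 8 of the 10 genes passed the filter on low counts. Of these, 4 rose (Il6, Ccl3, Il10 and Ebi3), 3 fell (Ltb, Lta and Tgfb1) and 1 did not pass the test (Tnf). Over all 10343 genes tested, 68.7% were called, 34.2% higher and 34.4% lower, so a call was common among all genes. In the 129 tables, of 6 genes tested, Il6, Ccl3 and Il10 rose and Ltb and Tgfb1 fell, where 55.2% of all genes were called, 28.2% higher. In the Cast tables, of 7 tested, the same 3 and Ebi3 rose and Ltb and Tgfb1 fell, where 62.2% were called, 30.7% higher. Il6 and Ccl3 passed the filter only through the stimulated samples, and Lta only through the naive samples, so their direction was set by the filter. Ebi3 reached the filter's CPM cut in 3 stimulated and 2 naive samples, which favoured its direction without setting it. In the strain tables the filter set the direction of Il6 and Ccl3 in both, of Il10 in the 129 table and of Ebi3 in the Cast table. Il10 in the Cast table reached the cut in 3 stimulated and 2 naive samples. Ltb in the 129 table reached it in 3 naive and 2 stimulated samples. The median log2 fold change was 1.00 over the 8 genes and -0.01 over all genes tested. Ccl4 and Ccl22 stayed below the filter.

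**Figure D1:**
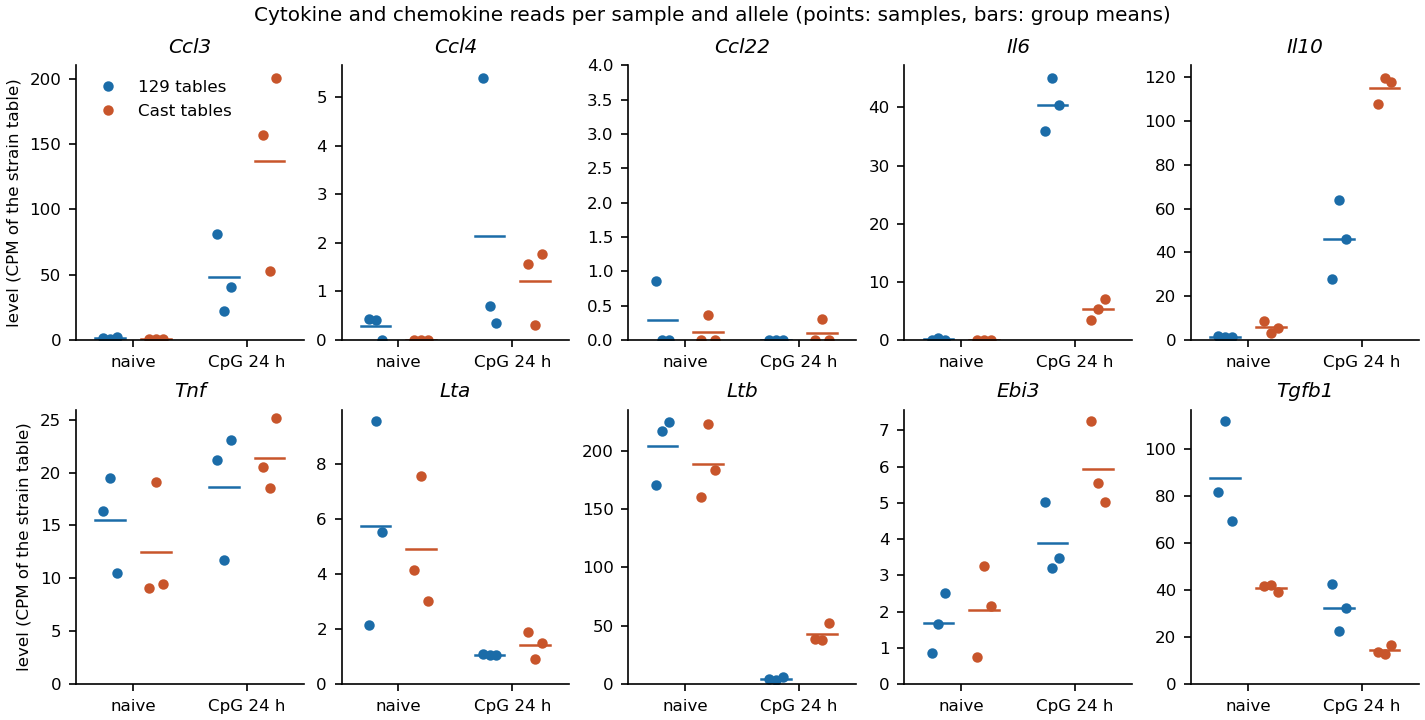
Level of each of the 10 genes in every sample, in CPM of the strain table (vertical axes start at 0 and differ between genes), for naive and CpG-stimulated cells. Blue points are 129 and orange points Cast samples, in the order of the replicate numbers, and horizontal bars are means of 3 samples. After CpG, Il6 averages 5.27 CPM on the Cast and 40.5 CPM on the 129 allele, while Ltb keeps 37.6 to 52.1 CPM on the Cast and 3.54 to 5.93 CPM on the 129 allele.

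Il6, which encodes interleukin-6, was almost unread in naive cells and appeared in every stimulated sample. Over both alleles it had 0, 1 and 0 reads in naive replicates 1, 2 and 3 and 111, 144 and 140 reads in the stimulated replicates. The stimulated samples were close to each other and far above the naive ones. Summed over the groups and scaled for depth, 395 reads against 1 read is a ratio of 320, with an exact 95% counting interval of 57.2 to 12687. The level after CpG was 26.3 ± 3.11 CPM (SD, n = 3), and the change passed the test (edgeR adjusted p = 9.66e-07). The 1 naive read lay on the 129 allele of naive replicate 2, and without that sample the naive reads were 0. On the Cast allele there were 0 reads in all 3 naive samples and 11, 17 and 24 after CpG. Against a floor of 3 reads over the naive group this is 13.7-fold higher, and the exact 95% counting interval starts at 10.8. Such ratios, intervals and floors pool the reads of a group, so they cover counting error only and leave out the spread between samples. These reads also carry no molecular identifiers. Receptor genes of interleukin-6 moved the other way. Il6ra, the ligand-binding chain, fell from 89.3 ± 14.1 to 5.89 ± 1.94 CPM (SD, n = 3), or -3.92 on the log2 scale with an SE of 0.23 (edgeR adjusted p = 6.77e-07). Il6st, the shared signalling chain, fell by 1.41 on the log2 scale (SE 0.24, edgeR adjusted p = 0.000848).

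Il10 was low in naive cells and high in every stimulated sample. It had 27, 12 and 16 reads over both alleles in the naive and 421, 568 and 531 in the stimulated samples, or 4.53 ± 1.84 and 101 ± 13.6 CPM (SD, n = 3). The groups did not overlap, and the log2 fold change was 4.47 (SE 0.24, edgeR adjusted p = 4.70e-07). Both alleles rose, the 129 allele by 4.90 (SE 0.42, adjusted p = 7.41e-05) and the Cast allele by 4.30 (SE 0.26, edgeR adjusted p = 1.77e-06). Il10ra, the ligand-binding chain of the interleukin-10 receptor, fell by 1.22 on the log2 scale (SE 0.13, edgeR adjusted p = 2.47e-05) and stayed at 391 ± 47.6 CPM (SD, n = 3) after CpG. Socs3, a feedback inhibitor that cytokines of this kind induce, rose from 20.4 ± 1.60 to 87.0 ± 65.8 CPM (SD, n = 3), or 2.09 on the log2 scale with an SE of 0.53 (edgeR adjusted p = 0.0117), and its stimulated samples varied widely, from 229 to 817 reads.

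Ebi3 encodes a secreted subunit that pairs with the Il27 product to form interleukin-27 and with the Il12a product to form interleukin-35. It had few reads, 4, 13 and 10 in the naive and 37, 27 and 27 in the stimulated samples. It reached the filter's CPM cut in 2 naive and 3 stimulated samples. All 3 stimulated samples were above all naive ones, at 6.08 ± 1.31 against 2.23 ± 1.11 CPM (SD, n = 3), or 1.44 on the log2 scale with an SE of 0.44 (edgeR adjusted p = 0.0156). The call depended on stimulated replicate 1, without which the edgeR adjusted p was 0.0649, and it was lost against a minimum log2 fold change of 1 (adjusted p = 0.181). Ebi3 overlaps Gm16712 on the other strand in the GENCODE M21 annotation, and whether the counting used strand is not given in the sources used here. The partner gene Il12a fell from 50.5 ± 2.25 to 23.8 ± 1.75 CPM (SD, n = 3), or -1.08 on the log2 scale with an SE of 0.13 (edgeR adjusted p = 6.74e-05). Il27 had 0 to 3 reads in naive and 2 to 12 in stimulated samples, below the filter. Il27ra, the receptor of interleukin-27, fell by 3.07 on the log2 scale (SE 0.17, edgeR adjusted p = 5.67e-07).

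Tgfb1 was lower after CpG on both alleles. Over both alleles it had 301, 386 and 229 reads in the naive and 162, 105 and 149 in the stimulated samples. The groups did not overlap. The level fell from 74.5 ± 13.3 to 27.8 ± 6.26 CPM (SD, n = 3), or -1.43 on the log2 scale with an SE of 0.19 (edgeR adjusted p = 0.000134), with -1.43 in the 129 and -1.51 in the Cast tables (edgeR adjusted p = 0.00328 and 0.000100). The 129 call was lost against a minimum log2 fold change of 1 (adjusted p = 0.0884). Macrophages also make this cytokine, and their 15 matched markers summed to 3551 to 7523 CPM in naive and 28.5 to 40.4 CPM in stimulated samples. Their part in the fall was not tested. The protein is secreted in a latent form that carrier proteins hold, and the carrier genes moved apart. Lrrc32, a surface anchor of the latent form, rose from 1.86 ± 0.604 to 60.8 ± 17.7 CPM (SD, n = 3), or 4.99 on the log2 scale with an SE of 0.31 (edgeR adjusted p = 9.66e-07), with 5 to 11 reads in naive and 235 to 415 in stimulated samples, through which alone it passed the filter. Nrros, its counterpart on myeloid cells, fell by 2.55 on the log2 scale (SE 0.23, edgeR adjusted p = 9.12e-06). The receptor genes Tgfbr1 and Tgfbr2 fell by 0.91 (SE 0.22, adjusted p = 0.00417) and by 1.29 on the log2 scale (SE 0.10, edgeR adjusted p = 2.92e-06). Smad7, which encodes an inhibitor of the pathway, fell by 3.03 on the log2 scale (SE 0.38, edgeR adjusted p = 0.000184).

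Ltb, which encodes lymphotoxin beta, the membrane anchor of the lymphotoxin trimer, had the most naive reads of the 10 genes and was lower in every stimulated sample. It had 822, 1138 and 873 reads over both alleles in the naive and 135, 132 and 193 in the stimulated samples, without overlap. The level fell from 233 ± 33.5 to 30.6 ± 6.19 CPM (SD, n = 3), or -2.93 on the log2 scale with an SE of 0.17 (edgeR adjusted p = 6.37e-07). In GENCODE M21 the microRNA gene Mir6973a overlaps it on the same strand, as Mir6974 overlaps Lta.

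Lta, whose product joins that of Ltb in the trimer, was read at a low level and fell too. It had 16, 44 and 18 reads in the naive and 9, 6 and 8 in the stimulated samples, or 6.30 ± 3.37 and 1.54 ± 0.326 CPM (SD, n = 3). The groups did not overlap, and the log2 fold change was -2.03 (SE 0.48, edgeR adjusted p = 0.00405). Lta passed the filter only through the naive samples, so it had to be lower after CpG. Neither strain table alone had enough reads for the test. Ltbr, the receptor of the trimer, had few reads, passed only through the naive samples and fell by 1.73 on the log2 scale (SE 0.54, edgeR adjusted p = 0.0170). Lta and Ltb are also made by T cells, whose markers summed to 69.8 to 204 CPM in naive and 29.3 to 39.0 CPM in stimulated samples. The largest part of the mean sum was Il7r, which did not pass the test. Cd3e had 3 to 9 reads in naive and 0 to 1 in stimulated samples. The part of T cells in these falls was not tested.

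Tnf, which encodes tumour necrosis factor, did not pass the test. It had 62, 100 and 43 reads in the naive and 124, 93 and 151 in the stimulated samples, so the groups overlapped, with naive replicate 2 above stimulated replicate 2. The levels were 16.5 ± 5.82 and 24.5 ± 5.53 CPM (SD, n = 3), or 0.56 on the log2 scale with an SE of 0.28 (edgeR adjusted p = 0.0992). The result turned on single samples: without naive replicate 2 the log2 fold change was 0.88 (adjusted p = 0.0163), and without stimulated replicate 2 it was 0.71 (edgeR adjusted p = 0.0459). From Cast reads alone it was 0.76 (SE 0.32, adjusted p = 0.0643), which passed with the replicate number as a block (edgeR adjusted p = 0.0354). From 129 reads alone it was 0.26 (SE 0.35, edgeR adjusted p = 0.555). Of the receptors, Tnfrsf1a, which passed the filter only through the naive samples, had 76 to 150 reads in naive and 0 to 2 in stimulated samples, while Tnfrsf1b, at 95.2 ± 17.2 CPM after CpG (SD, n = 3), had a log2 change of 0.15 with an SE of 0.16 (edgeR adjusted p = 0.422). Adam17, the protease that releases tumour necrosis factor from the membrane, fell by 0.62 on the log2 scale (SE 0.10, edgeR adjusted p = 0.000362).

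Among the chemokines, Ccl3 went from a few naive reads to a high level in every stimulated sample. It had 5, 3 and 6 reads over both alleles in the naive and 724, 235 and 793 in the stimulated samples. Stimulated replicate 2 was the lowest of its group and still far above the naive samples. The level rose from 1.18 ± 0.477 to 117 ± 60.6 CPM (SD, n = 3), or 6.63 on the log2 scale with an SE of 0.70 (edgeR adjusted p = 0.000162). The 129 tables gave 4.95 (SE 0.65, edgeR adjusted p = 0.000678), and 4.35 without stimulated replicate 1. On the Cast allele, 1348 stimulated reads against 4 naive reads is a depth-scaled ratio of 267, with a counting interval of 104 to 981 (edgeR adjusted p = 1.58e-05). Ccl4, which lies next to Ccl3, had 1, 1 and 0 reads in the naive and 20, 3 and 7 in the stimulated samples. That is 30 reads against 2, a depth-scaled ratio of 12.2 with a counting interval of 3.09 to 105, too few for the filter. With no filter on low counts, the edgeR adjusted p of Ccl4 was 0.00666. Ccl22 had 2, 1 and 0 reads in naive and 0, 1 and 0 in stimulated samples, so no change was detectable at this depth. Ccr1, a receptor of Ccl3, fell from 32 to 64 reads in naive to 1 to 2 in stimulated samples (edgeR adjusted p = 8.86e-06), having passed the filter through the naive samples alone. Macrophages also carry this receptor, and their markers were lower in the same samples, with a part that was not tested. Ccr4, the receptor of Ccl22, had 0 to 1 reads in every sample.

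**Figure D2:**
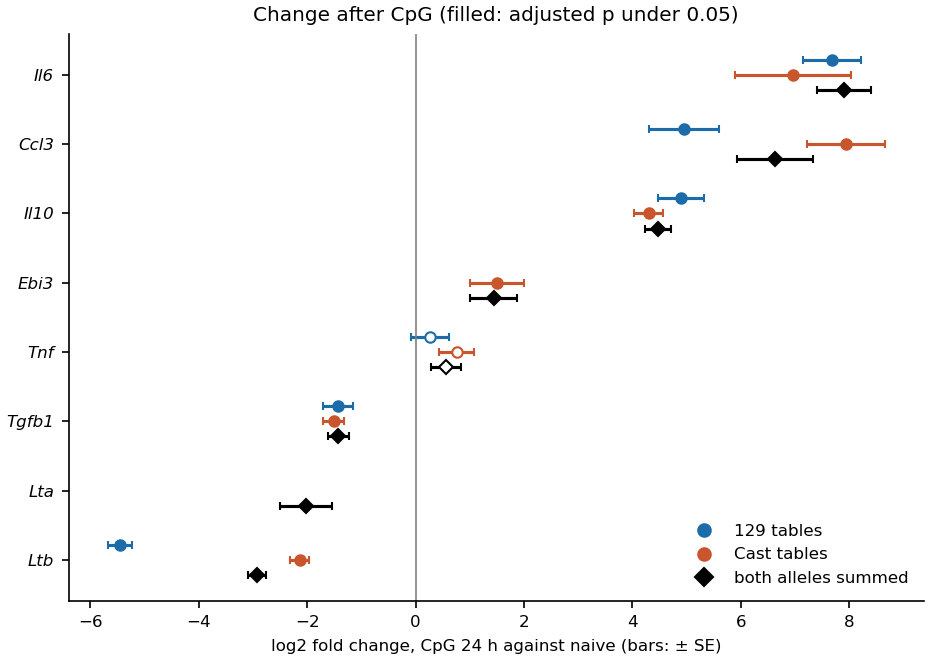
Log2 fold change after CpG, with its SE, for the 8 genes that passed the filter with both alleles summed, in the 129 tables (blue), the Cast tables (orange) and both alleles summed (black). Filled symbols passed an adjusted p of 0.05, and a gene without a symbol was not tested in that table. Fitted values of Il6 and Ccl3 rest on few naive reads. Ltb is the gene whose alleles stand furthest apart, at -5.45 and -2.14.

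The alleles were then compared within each gene. A Cast share is the Cast reads over the 129 and Cast reads of a gene. The autosomal share was 52.0% to 53.6% in the 6 samples. How a read was given to a strain is not given in the sources used here, and the number of strain differences that a gene's reads cover bears on its share, with a part that was not tested. In naive cells 26.6% of 10364 genes differed between the alleles by edgeR's test (14.7% toward Cast, or 1526 genes against 1230 toward 129, which became 1169 and 1676 when each allele had its own library size). With the replicate number as a block it was 4622 genes. Among the 8 cytokine genes tested, Il10 lay toward Cast and Tgfb1 toward 129. After CpG 26.7% of genes differed, 14.8% toward Cast, or 1537 genes against 1234 toward 129, which became 1282 and 1469 when each allele had its own library size. With the block it was 4740 genes. Of the 8, Il10, Ccl3 and Ltb lay toward Cast and Il6 and Tgfb1 toward 129.

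Il10 reads came mainly from the Cast allele in both states. The Cast share was 85.2%, 75.0% and 81.3% in naive replicates 1, 2 and 3 and 81.5%, 68.3% and 75.1% in the stimulated ones. The groups overlapped. Their means were 80.5% ± 5.14 and 75.0% ± 6.58 (SD, n = 3, two-sided exact permutation p = 0.5, where 0.1 is the smallest possible). The log2 ratio of Cast to 129 was 2.10 (SE 0.36, edgeR adjusted p = 0.00446) in naive and 1.60 (SE 0.21, edgeR adjusted p = 0.00114) in stimulated cells. Tgfb1 had the opposite lean. Its Cast share was 36.9%, 30.3% and 39.7% in naive and 27.2%, 39.0% and 37.6% in stimulated samples, with means of 35.6% ± 4.83 and 34.6% ± 6.48 (SD, n = 3, two-sided exact permutation p = 0.8). Its log2 ratio was -0.86 (SE 0.19, adjusted p = 0.0151) and -0.93 (SE 0.21, edgeR adjusted p = 0.0133). The naive call was lost without naive replicate 1 (edgeR adjusted p = 0.0581) or naive replicate 2 (edgeR adjusted p = 0.105). The stimulated call was lost without stimulated replicate 1 (edgeR adjusted p = 0.0661).

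Il6 and Ccl3 could be judged after CpG only. The Il6 reads were mostly from the 129 allele, with a Cast share of 9.91% (95% Wilson interval 5.62 to 16.9), 11.8% (7.50 to 18.1) and 17.1% (11.8 to 24.2), a log2 ratio of -2.75 (SE 0.31, edgeR adjusted p = 0.00222). The Ccl3 reads were mostly from the Cast allele, with a share of 68.9% (65.5 to 72.2), 73.2% (67.2 to 78.4) and 85.4% (82.7 to 87.7), a log2 ratio of 1.71 (SE 0.28, edgeR adjusted p = 0.00363). So the induced cytokines did not share a favoured allele. The Tnf share was 38.7%, 53.0% and 51.2% in naive and 52.4%, 64.5% and 56.3% in stimulated samples, with overlap. Ebi3, at 63.9% ± 2.40 (SD, n = 3) after CpG, did not pass (log2 ratio 0.81, SE 0.38, edgeR adjusted p = 0.170).

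Ltb had a log2 allele ratio of 0.09 in naive cells (SE 0.09, edgeR adjusted p = 0.533) and 3.42 toward Cast after CpG (SE 0.12, edgeR adjusted p = 2.59e-06). In the naive samples it had 397, 521 and 447 reads on the 129 and 425, 617 and 426 on the Cast allele. After CpG it had 12, 10 and 17 reads on the 129 allele and 123, 122 and 176 on the Cast allele. The 129 allele thus fell far more than the Cast allele in each replicate. The Cast share was 51.7%, 54.2% and 48.8% in naive and 91.1% (85.1 to 94.8), 92.4% (86.6 to 95.8) and 91.2% (86.3 to 94.4) in stimulated samples. The means were 51.6% ± 2.71 and 91.6% ± 0.736 (SD, n = 3), so the share was 40.0 points higher and the groups were apart (exact permutation, two-sided p = 0.1, which no such design can go below). The 129 allele fell by 5.45 on the log2 scale (SE 0.23, adjusted p = 1.18e-05) and the Cast allele fell by 2.14 (SE 0.18, edgeR adjusted p = 9.46e-06).

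**Figure D3:**
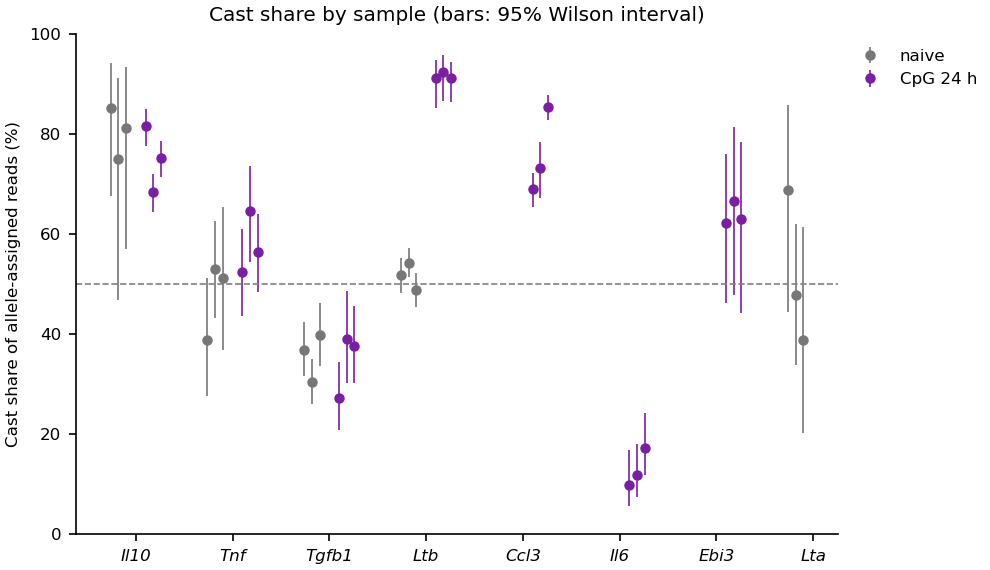
Cast share of the reads of each gene (vertical axis, percent) in naive (grey) and CpG-stimulated samples (purple), with 95% Wilson intervals; the dashed line is at 50%. Groups with a sample under 10 reads are left out. The Ltb samples move from 48.8% to 54.2% up to 91.1% to 92.4%, while those of Il10, Tnf and Tgfb1 overlap between the groups.

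The difference between the alleles in their response was tested as an interaction, with a term for each sample. Over 10364 genes, 95 passed, which is 0.917% (50 toward Cast and 45 toward 129, or 51 and 30 with a library size for each allele), and 779 passed with the replicate number as a block. Leaving out any 1 of the 6 samples left 14 to 26. Of the 8 cytokine genes tested, Ltb passed and the other 7 did not. Both alleles of Ltb fell, and its log2 fold change was 3.33 higher on the Cast than on the 129 allele (SE 0.15, edgeR adjusted p = 0.000398). Over its 9 alternatives this difference was 3.25 to 3.41, with an adjusted p of 0.00807 at most. Ccl3 had a difference of 2.96 toward Cast (SE 0.78, edgeR adjusted p = 0.178) that rested on 14 naive reads in all and passed with the block (adjusted p = 0.00762). The other 6 had differences between -0.78 (Il6) and 0.58 (Tnf). That of Il6 rested on 1 naive read in all (SE 1.11). That of Lta rested on 6 to 9 stimulated reads per sample (SE 0.76), and that of Ebi3 on 4 to 13 naive reads (SE 0.66). Such counts cannot show whether the alleles of these genes responded alike.

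The genes beside Ltb on chromosome 17 were set next to it after its values had been seen, in the order of GENCODE M21 and where each sample had at least 10 reads. Lst1, on one side, went from a Cast share of 68.3% ± 4.82 to 86.6% ± 4.59 (SD, n = 3), an interaction of 1.51 (SE 0.33, edgeR adjusted p = 0.103). Lst1 is known mainly from myeloid cells, whose markers were lower after CpG with a part that was not tested, and it had 34 to 553 reads per sample. Tnf, on the other side, went from 47.6% ± 7.77 to 57.7% ± 6.18 (SD, n = 3), an interaction of 0.58 (SE 0.36, edgeR adjusted p = 0.660). Nfkbil1, beyond Tnf, had an interaction of 0.79 (SE 0.43, edgeR adjusted p = 0.578). Prrc2a and Bag6 had values of -0.05 and -0.16, and Atp6v1g2, with 10 to 22 reads, 0.49 (edgeR adjusted p of at least 0.964 each). No gene shown beside Ltb passed the test.

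Genes that act with these cytokines were counted against the 68.7% called, 34.4% lower and 34.2% higher, and the median of -0.01, over all genes tested. Of 17 receptor genes 13 were tested, and 0 rose, 12 fell and 1 did not pass, with a median log2 fold change of -1.73, and 4 of the 12 had passed the filter only through the naive samples. Besides Il6ra, Il27ra and Il6st, Tnfrsf14, a receptor that also binds the Lta product, was among the largest falls with many reads, at -1.43 (SE 0.17, edgeR adjusted p = 6.04e-05). Of 16 genes for partner subunits and for release and activation, 8 were tested, 1 rose (Lrrc32), 4 fell and 3 did not pass, with a median of -0.48, so the share called was near that of all genes. Of 16 signal transducers, all tested, 1 rose (Socs3), 10 fell and 5 did not pass, with a median of -0.84. The falls with many reads included Birc3 and Map3k14, which act below receptors of the tumour necrosis factor family, at -1.94 (SE 0.18, adjusted p = 1.22e-05) and -1.70 (SE 0.11, edgeR adjusted p = 1.24e-06).

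Of 11 genes for proteins that bind cytokine messenger RNA and set its decay, 8 were tested, 1 rose, 5 fell and 2 did not pass, with a median of -0.84, so the share called was near the 68.7% of all genes. The 3 largest falls were those of a family of decay factors that bind AU-rich elements, as are found in Tnf, Il6 and Il10 messages. Zfp36 fell from 176 ± 26.7 to 16.8 ± 1.36 CPM (SD, n = 3), or -3.38 on the log2 scale with an SE of 0.15 (edgeR adjusted p = 2.06e-07). Zfp36l2 fell by 3.84 (SE 0.37, adjusted p = 7.52e-05) and Zfp36l1 fell by 2.42 on the log2 scale (SE 0.11, edgeR adjusted p = 2.18e-07). Khsrp, another decay factor, named after its values were seen, was the gene that rose, by 0.83 (SE 0.11, edgeR adjusted p = 0.000126). Macrophages and T cells express many genes of these lists too, and their part in the falls was not tested.

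**Figure D4:**
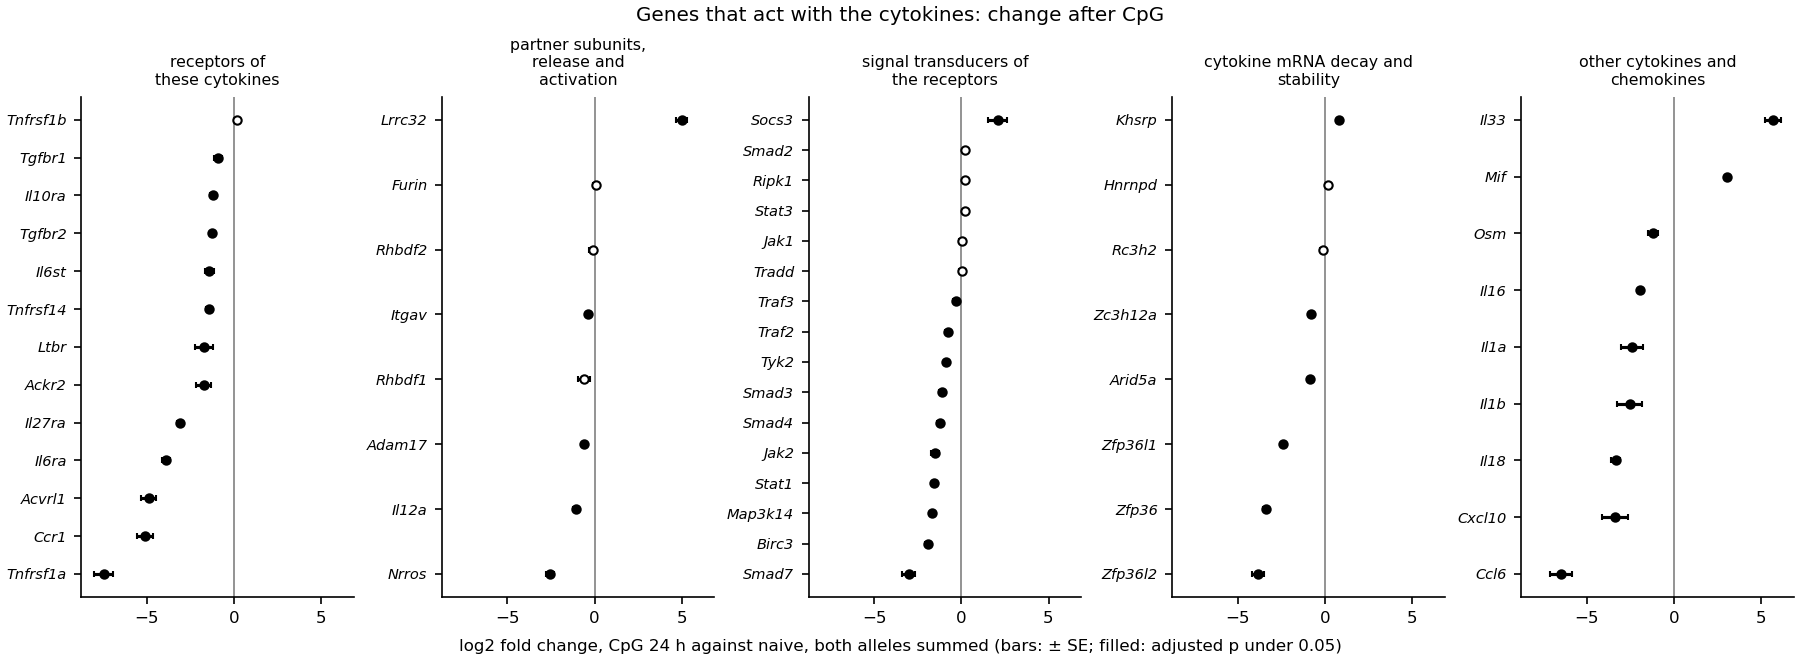
Log2 fold change after CpG with both alleles summed, with its SE, of each tested gene in 5 lists: receptors, partner subunits with release and activation factors, signal transducers, factors of cytokine mRNA decay, and other cytokines. Filled points passed an adjusted p of 0.05. Of the receptors, 12 of 13 lie to the left of 0 as filled points.

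Of 35 other cytokine and chemokine genes 33 were matched, 10 of these had 0 reads in all samples, and 9 were tested, of which 2 rose and 7 fell, with a median of -2.40, beside 68.7% called and 34.4% lower over all genes. Of the 9, 5 passed the filter through 1 group only. Macrophages express several of the 7, and their markers summed to 3551 to 7523 CPM in naive and 28.5 to 40.4 CPM in stimulated samples, with a part that was not tested. Mif, a cytokine stored in many cell types, rose from 69.0 ± 9.74 to 565 ± 32.6 CPM (SD, n = 3), or 3.03 on the log2 scale with an SE of 0.13 (edgeR adjusted p = 1.58e-07). Il16, which attracts CD4+ cells, fell from 995 ± 22.9 to 260 ± 11.5 CPM (SD, n = 3), or -1.93 on the log2 scale with an SE of 0.10 (edgeR adjusted p = 3.45e-07). Il18 fell by 3.35 on the log2 scale (SE 0.25, edgeR adjusted p = 2.76e-06). The other gene that rose was Il33, named after its values were seen, which had 0 to 3 reads in naive and 101 to 133 in stimulated samples and passed the filter only through the latter.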

How the data were processed

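The deposited files held whole-number read counts per gene with no normalization, 1 table for the 129S1/SvImJ and 1 for the CAST/EiJ annotation per sample, per the file headers and gene identifiers. The submitters' processing notes name STAR, featureCounts, Subread 2.0.0 and mm10 with no roles, while the files close with tally rows of the htseq-count kind, and which program the authors counted with, and how a read was given to a strain, is not given in the sources used here. Tally rows were left out. The row for no annotated gene held 57.9% to 67.1% of aligned reads in naive and 44.5% to 56.7% in stimulated samples. The groups were thus apart in this share, and its part in the changes was not tested. Unnamed genes held 5.10% to 19.7% of gene counts. No sample was a copy of another: chi-square over its degrees of freedom was 5.96 to 15.7 for pairs within a group.

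Counts were tested with edgeR 4.0.16 in R 4.3.3 (quasi-likelihood, robust, TMM, filterByExpr, Benjamini-Hochberg), in each strain's tables and over both alleles summed. CPM and log2 fold changes come from these fits. Allele ratios were fitted over genes with at least 10 reads in at least 3 samples, sample terms in the model and a library size shared by the alleles. Alternatives were DESeq2 1.42.0, its size factors, no filter, a minimum log2 fold change of 1, a library size for each allele, a replicate block and leaving out each sample. Same-numbered naive and stimulated samples deviated together (correlations of 0.18, 0.16 and 0.21 over 10343 genes, against -0.12 to -0.05 for other pairs), so the numbers were taken to pair the samples in the replicate block. The main fits and the exact permutation test leave this pairing out. With the block 779 genes passed the interaction, in place of 95. The fits were tested on simulated data with the same dispersion in every gene and changes placed only in genes with many reads. That test does not cover genes with few reads, such as Lta and Ebi3.

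All 10 genes were named. From each other list, up to 4 genes with the largest change and a mean of at least 100 reads were named, and receptors, partners and release factors beside the gene they act with. The markers Spic, Il7r and Cd3e, and genes named because of the filter, fall outside this rule. The genes and lists were chosen with earlier results of these data known. The receptor list leaves out 1 gene that is not reported here.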

Additional observations from a re-analysis of the deposited data

Results flagged for a closer look

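The response of Ltb to CpG differed between the alleles by the test of the difference itself. Both alleles fell, with log2 fold changes of -5.45 on the 129 and -2.14 on the Cast allele. The interaction put the Cast value 3.33 above the 129 value (SE 0.15, edgeR adjusted p = 0.000398, 3 naive and 3 stimulated samples). The Cast share was higher in all 3 stimulated than in all 3 naive samples.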

How the results depend on the processing

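Fits in which a gene could no longer be tested were left out, such as Il6 in the Cast tables without stimulated replicate 2 or 3. The allele ratios of Ccl3, Il6 and Lta had 6 alternatives each, where Ltb had 9. Of 45 values for single genes over the 418 fits that remained, 33 kept their direction and their side of the threshold wherever they were tested. Among the other values, 11 fits lost a call, 6 gained a call and 5 changed the sign of an uncalled value. The 5 were Lta (-0.0795) and Ltb (-0.0514) in naive allele ratio with a library size for each allele, Tnf in naive allele ratio without naive replicate 1 (0.13, where leaving out any 1 sample gave -0.32 to 0.13), and Tgfb1 in the interaction without naive replicate 3 (0.05) or stimulated replicate 1 (0.18, over a range of -0.25 to 0.18). Ebi3 in the Cast tables lost its call with DESeq2 (adjusted p = 0.0509), a minimum log2 fold change of 1 (edgeR adjusted p = 0.191), or without naive replicate 1, naive replicate 3 or stimulated replicate 1 (edgeR adjusted p of 0.0786, 0.0595 and 0.0825). Tnf in the Cast tables gained one with no filter (edgeR adjusted p = 0.0205) and without naive replicate 2 (edgeR adjusted p = 0.00598). A minimum log2 fold change of 1 left 2525 genes called in the 129 tables, 2827 in the Cast tables and 3095 with the alleles summed. The replicate block gave 6884, 6868 and 7271 there, 779 genes in the interaction, and 4622 naive and 4740 stimulated genes that differed between the alleles; beyond Tnf in the Cast tables and Ccl3 in the interaction it changed no call among the 10 genes. Leaving out 1 sample gave 14 to 26 genes in the interaction, 1836 (without naive replicate 2) to 2618 in naive and 1932 to 2571 in stimulated allele ratio. The 4 differences in Cast share moved by less than 1 SD in all 32 alternatives; with the replicate block that of Ltb was 40.0 points (exact sign-flip permutation p = 0.25, the smallest possible). Why these values moved was not tested. Depth limits Ccl4, Ccl22, Lta and Ebi3 most.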

Other observations

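Patterns were compared as log2 CPM with a prior count of 2, which draws together values from few reads. For each tested gene, the gene whose pattern was most like it was the one with the smallest root mean square (RMS) difference of centred log2 CPM over the 6 samples, among 10335 candidates. For Tgfb1 this was Ube2d1 (RMS 0.0903, log2 fold change -1.42), for Ltb Icosl, a co-stimulatory ligand (RMS 0.116, -2.85), and for Tnf Sirt5 (RMS 0.123, 0.39). Il10 was closest to Akap1 (RMS 0.189, 4.37), Il6 to Pbk, a mitotic kinase (RMS 0.194, 5.58), and Ccl3 to Wfdc21 (RMS 0.314, 6.04). The fitted log2 fold change of Il6 itself was 7.91, on almost no naive reads, so its size is far from that of Pbk. Ebi3 was closest to Dzip1 (RMS 0.165, 2.05) and Lta to Gm12216 (RMS 0.178, -1.86).

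Of 5 plasma cell markers 3 were tested, 2 higher and 1 lower after CpG. Xbp1, a regulator of secretion, rose from 115 ± 7.03 to 236 ± 8.17 CPM (SD, n = 3), or 1.04 on the log2 scale with an SE of 0.10 (edgeR adjusted p = 1.00e-05). Prdm1, named after its values were seen, rose by 2.76 (SE 0.43, edgeR adjusted p = 0.000334). It reached the filter's CPM cut in 3 stimulated and 2 naive samples. Jchain fell by 1.81 on the log2 scale (SE 0.32, edgeR adjusted p = 0.00175).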
